A study of Schizosaccharomyces pombe with 2 samples.

Results

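The genes described here act in DNA repair and the DNA damage checkpoint of fission yeast (*Schizosaccharomyces pombe*), and there are 5 of them, *hus1*, *lig4*, *eme1*, *srs2* and *ssb3*. They were taken by name from 1301 genes or loci in 4 deposited tables, and every line that names them was kept. Those lines were 4 of 1292 annotated introns, 4 of 817 introns with a located branch point, 2 of 23 skipped exons and 0 of 222 introns that the authors added to the annotation. The genes were chosen by values in these tables, namely peak reads, the share of branch reads at the leading position and reads over skipped exons, so their levels, their branch positions and their skipped exons are given as descriptions with no test.

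The RNA came from strain 972 h- with dbr1 deleted, and no strain with intact dbr1 was analysed here. Dbr1 is the enzyme that opens the branched circle, or lariat, left by splicing, so cells without it keep excised introns as circles. The cultures covered 41 conditions of growth or treatment and their RNA was combined before the gels, so no value belongs to a condition. The circular RNA was cut from 2-dimensional acrylamide gels after a short run (7.5% and then 15% acrylamide) and after a long run (7.5% and then 20%), and 1 library was made from each. No value has a replicate, intervals cover counting error only, and PCR copies are not independent molecules, which can make the intervals too narrow.

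The 5 gene products act at different steps of the response to DNA damage. Hus1 forms, with Rad9 and Rad1, the ring-shaped clamp that is loaded at damaged DNA and activates the checkpoint kinases. Lig4 is the ligase that seals broken ends in non-homologous end joining, and Ssb3 is the smallest subunit of replication protein A, which coats single-stranded DNA. Eme1 is the partner of the Mus81 nuclease, which cuts branched DNA, and Srs2 is a DNA helicase of the UvrD family with a part in recombination.

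Introns were recovered from 4 of the 5 genes, and 1 intron of each. Of all mRNA genes with an annotated intron, 42.4% had a listed intron. The genes were chosen from the tables, so nothing is read from the difference. The sequences below are shown because they carry the branch points on which the comparison turns. They run 5′ to 3′, come from the ASM294v3 assembly of RefSeq at the positions in the authors' table, and have the branch sequences that the authors listed in capitals. No source used here names the build behind the authors' positions. At those positions the assembly had GT and AG at the intron ends, and it held each listed branch sequence at its listed distance.
*ssb3* intron 2, chr3:1281951-1282051, minus strand: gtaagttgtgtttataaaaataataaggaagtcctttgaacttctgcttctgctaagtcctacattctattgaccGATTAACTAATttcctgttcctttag
*eme1* intron 2, chr1:3299549-3299632, minus strand: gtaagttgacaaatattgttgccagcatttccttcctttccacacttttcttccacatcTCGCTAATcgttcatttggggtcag
*lig4* intron 2, chr3:602430-602516, minus strand: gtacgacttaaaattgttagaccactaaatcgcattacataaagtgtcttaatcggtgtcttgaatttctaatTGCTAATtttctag
*srs2* intron 1, chr1:3833137-3833201, plus strand: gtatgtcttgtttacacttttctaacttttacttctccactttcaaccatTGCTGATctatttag

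The skipped exons of *hus1* and *lig4* were listed as circles made of an exon with the introns on either side of it. Their sequences are shown because the exons differ so much in size, with the exon in capitals. The authors' table gives a length and no position, and in the RefSeq annotation of ASM294v3 the exon plus both introns had exactly the listed length.
*hus1* exon 3 circle, chr1:4822247-4822378, minus strand: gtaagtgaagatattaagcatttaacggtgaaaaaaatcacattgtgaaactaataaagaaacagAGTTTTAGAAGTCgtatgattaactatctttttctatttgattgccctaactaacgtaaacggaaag
*lig4* exon 4 circle, chr3:602162-602366, minus strand: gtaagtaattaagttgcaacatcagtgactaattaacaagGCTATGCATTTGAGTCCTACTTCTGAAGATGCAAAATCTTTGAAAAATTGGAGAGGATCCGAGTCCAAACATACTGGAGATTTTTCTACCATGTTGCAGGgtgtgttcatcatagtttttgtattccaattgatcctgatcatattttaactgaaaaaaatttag

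The first comparison was of peak reads, the number of reads that the authors assigned to each intron in the table named for the short run. Intron 2 of *ssb3*, 101 nt long, had 13262 peak reads (Poisson 95% interval 13037 to 13490). Intron 2 of *eme1*, 84 nt long, had 2434 peak reads (2338 to 2533). Intron 2 of *lig4*, 87 nt long, had 360 peak reads (324 to 399). Intron 1 of *srs2*, 65 nt long, had 5 peak reads (1.62 to 11.7), and 5 is the lowest count in the table, shared by 17 introns. From high to low the order was *ssb3*, *eme1*, *lig4* and *srs2*. This order is a description only, because peak reads were among the values by which the genes were chosen.

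Per base of intron, the counts were 131 reads per nt for *ssb3*, 29.0 for *eme1*, 4.14 for *lig4* and 0.0769 for *srs2*. The order was thus the same as for whole introns. The count per nt of *ssb3* intron 2 was 4.53 times that of *eme1* intron 2 and 31.7 times that of *lig4* intron 2. Intron 2 of *eme1* had 6.76 times the peak reads of *lig4* intron 2, an intron of nearly the same length. Reads of *ssb3* made up 82.6% of the 16061 peak reads over the 4 introns, and these made up 0.173% of the 9296300 peak reads in the table.

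The 4 introns lay far apart in the table as a whole. Their median was 1397 peak reads, against 438 for all 1292 listed introns (quartiles 52 and 2947), and 2 of the 4 lay above the median of the table. Intron 2 of *ssb3* ranked 107 from the top and had more reads than 91.7% of listed introns. Intron 2 of *eme1* ranked 361, above 72.1% of listed introns, and intron 2 of *lig4* ranked 682, above 47.2%. Intron 1 of *srs2* exceeded none, since its count is the lowest in the table.

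Few short introns were listed at all, so each intron was also set beside listed introns within 10 nt of its own length. Intron 2 of *eme1* had 2434 peak reads, against a median of 99 over 299 introns of like length, and exceeded 86.6% of them. Intron 2 of *ssb3* had 13262, against a median of 442 over 290 introns, and exceeded 91.4%. Intron 2 of *lig4* had 360, against a median of 150 over 325 introns, and exceeded 61.2%. Intron 1 of *srs2* had 5, against a median of 11 over 57 introns. Among introns of like length, *lig4* therefore stood above the median, although it lay below the median of the whole table.

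**Figure D1:**
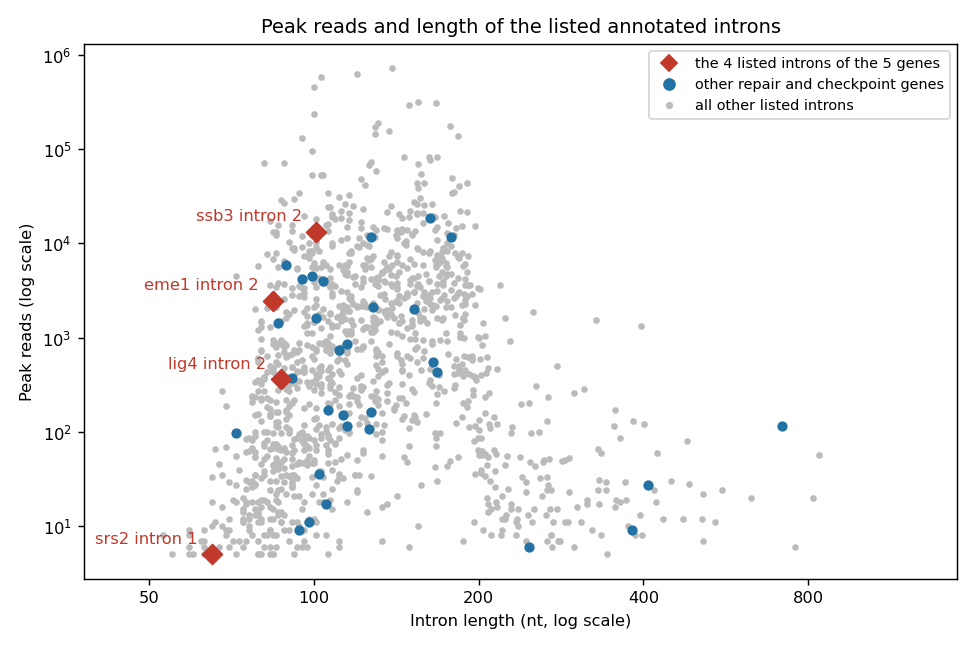
Peak reads (log scale) against intron length in nt (log scale) for the 1292 listed annotated introns, 1 point per intron, with the 4 introns of *ssb3*, *eme1*, *lig4* and *srs2* as red diamonds and other repair and checkpoint genes as blue points. The red diamonds run from 5 reads for *srs2* to 13262 reads for *ssb3*, and *srs2* lies on the lower edge of the table.

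The 5 genes have 22 introns in the RefSeq annotation, all of them between coding exons, and the other 18 were not listed. Those 18 measured 37 to 65 nt, with a median of 48 nt. Of the 22 introns 4 were listed, against 24.0% of all annotated mRNA introns no longer than 2000 nt. In the range of 80 to 200 nt, the 3 introns of these genes were all listed, and so were 89.5% of all annotated introns of that length. In the range of 37 to 65 nt, 1 of 19 introns was listed, that of *srs2*, against 0.493% of all annotated introns of that length. The genes were chosen from the tables, so nothing is read from these shares about repair genes.

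The gene with the most introns, *lig4*, has 11, of which the 10 not listed measured 37 to 65 nt. The 4 introns of *hus1* measured 48 to 65 nt and none was listed, so its skipped exon is its only line in the tables. The introns not listed were intron 1 of *eme1* (56 nt), introns 2 and 3 of *srs2* (45 nt each) and intron 1 of *ssb3* (63 nt). Intron 2 of *hus1* and intron 4 of *lig4* are 65 nt long, exactly as long as the listed intron of *srs2*, but were not listed. Each of those 2 introns flanks a skipped exon.

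**Figure D2:**
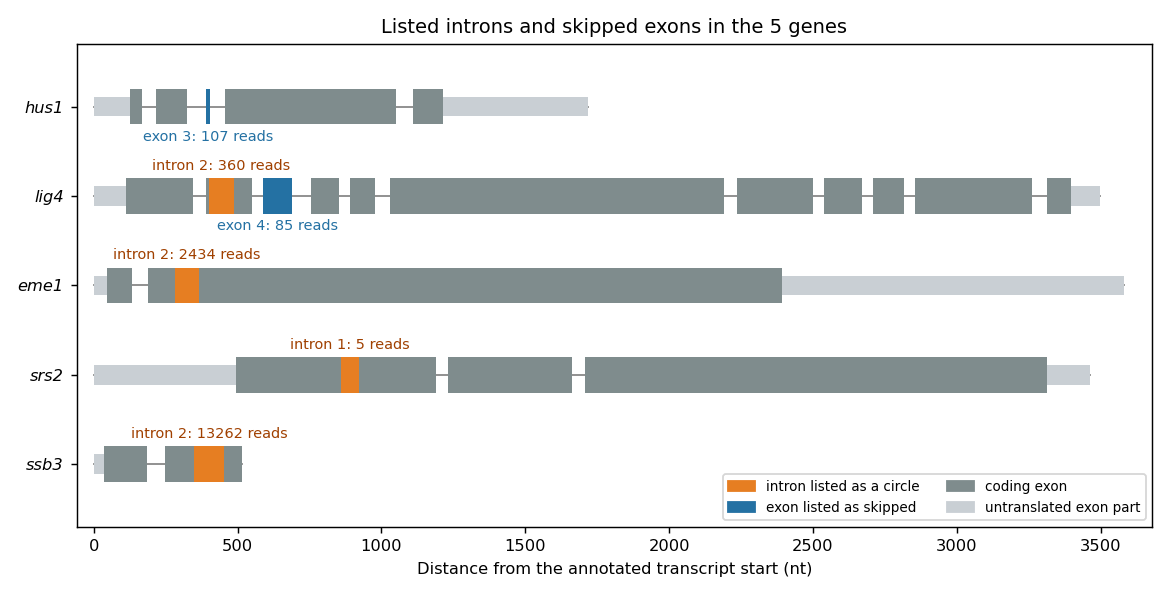
Maps of the 5 genes to scale, with distance from the annotated transcript start in nt on the x axis, coding exons in dark grey, untranslated exon parts in light grey, listed introns in orange with their peak reads, and skipped exons in blue with their circle reads. Thin lines are introns that were not listed, and all 4 orange introns and both blue exons lie toward the 5′ end of their genes or, in *ssb3*, between its last exons.

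The splice sites of the 4 listed introns were compared next. Intron 2 of *ssb3* and intron 2 of *eme1* both began with GTAAGT, as did 37.4% of listed introns. Intron 1 of *srs2* began with GTATGT, as did 24.4%. Intron 2 of *lig4* began with GTACGA, which only 10 of the 1292 listed introns share (0.774%). The introns with the most reads thus had the most frequent start, but 4 introns give no test of such a relation. In base composition *eme1* stood apart, with 41.7% G and C in intron 2, more than in 99.1% of listed introns. The G and C share was 32.7% in *ssb3*, 31.0% in *lig4* and 32.3% in *srs2*, which exceeded 73.6%, 58.3% and 69.7% of listed introns.

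Branch reads cross the joint between the start of an intron and its branch base and so locate that base. The authors list each position as a 7-nt sequence, whose base 6 is taken here as the branch base, with the number of bases between its end and the end of the intron. In *lig4* intron 2, all 28 branch reads lay at TGCTAAT, 7 nt from the intron end by the authors' count (Wilson 95% interval of the share 87.9 to 100%). In *eme1* intron 2, 24 of 28 branch reads lay at CGCTAAT, 17 nt from the end (85.7%, 68.5 to 94.3). In *ssb3* intron 2, 19 of 22 lay at AACTAAT, 15 nt from the end (86.4%, 66.7 to 95.3). Intron 1 of *srs2* had a single branch read, at TGCTGAT, 8 nt from the end, so no second position could have been seen there.

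The second positions of *eme1* and *ssb3* differed in kind. In *eme1*, 4 of 28 reads (14.3%, 5.70 to 31.5) lay at TCGCTAA, 1 nt upstream of the leading position. The listed sequences share 6 of their 7 bases there, and the branch bases are bases 65 and 66 of the intron, counted from its first base. In *ssb3*, 3 of 22 reads (13.6%, 4.75 to 33.3) lay at GATTAAC, 4 nt upstream of the leading AACTAAT. In the intron sequence above, both lie in the run GATTAACTAAT, with the branch bases at bases 81 and 85 of the intron.

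Both kinds of second position were found in other introns of the table. Of the 194 positions listed beside a leading one, 117 lay 1 nt upstream of it, as in *eme1*, which is 60.3%. Only 3 lay 1 nt downstream. Another 18 lay 4 nt upstream, as in *ssb3* (9.28%). More than 1 position was listed for 20.4% of all introns in the branch table, and for 56.6% of the 175 introns with at least 20 branch reads. Whether a read at a neighbouring base marks a second branch base or a shifted alignment was not tested.

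The share of reads at the leading position is the value by which *eme1* and *ssb3* were picked. The median leading share over the 175 introns was 99.0%, and 5 introns had a share at or below that of *ssb3*, itself included. The introns most like *eme1* in leading share were intron 3 of SPAC1B3.02c, with 60 of 70 reads (85.7%), and intron 2 of *ssb3*. The introns most like *ssb3* were intron 3 of *pmk1*, which encodes a MAP kinase, with 26 of 30 reads (86.7%), and intron 3 of SPAC1B3.02c. Intron 2 of *lig4* shared a leading share of 100% with 75 other introns of that set. The intervals of the leading shares of *eme1*, *ssb3* and *lig4*, given above, overlap.

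**Figure D3:**
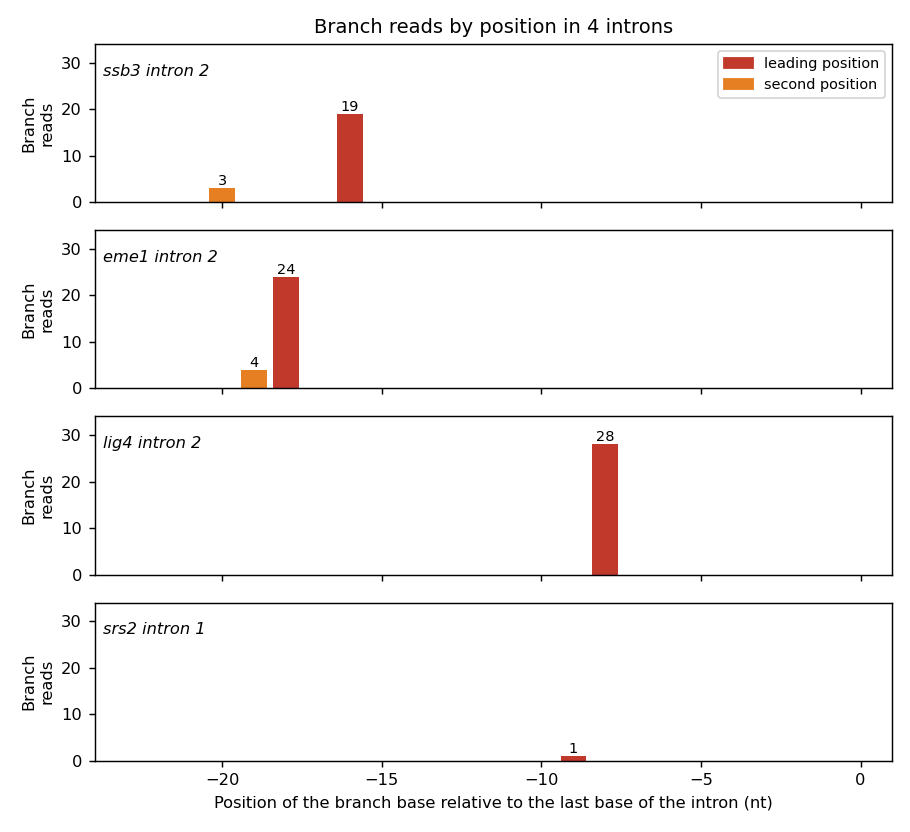
Branch reads (bars, counts on the y axis) at each listed branch base in introns of *ssb3*, *eme1*, *lig4* and *srs2*, with the position relative to the last base of the intron in nt on the x axis, leading positions in red and second positions in orange. The second bar of *eme1* stands next to its leading bar and that of *ssb3* stands 4 nt upstream, while *lig4* and *srs2* have 1 bar each, closer to the intron end.

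The introns fall into 2 pairs by where the branch lies, although *srs2* is placed by only 1 branch read. The leading distances of *eme1* and *ssb3*, 17 and 15 nt, were longer than the median of 11 nt over 817 introns (quartiles 9 and 13). A shorter distance was listed for 93.8% of introns in the case of *eme1* and for 85.8% in the case of *ssb3*. The distances of *lig4* and *srs2*, 7 and 8 nt, were shorter than the median, and 93.1% and 81.8% of introns had a longer one. The leading sequences were shared to unequal degrees. TGCTAAT of *lig4* led in 34 introns and AACTAAT of *ssb3* in 20. CGCTAAT of *eme1* led in only 4, and TGCTGAT of *srs2* led in no other intron.

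The letters CTAA, searched on the intron strand only, occurred in 83.2% of listed introns. There were 3 copies in *lig4* intron 2, 2 in *ssb3* intron 2 and 1 each in the introns of *eme1* and *srs2*. In *srs2* the copy lies upstream, in the stretch ttctaac, and its single branch read lay at TGCTGAT instead. In *lig4*, the CTAA copy just upstream of the listed sequence, in ttctaat, had no branch read among 28. A match to these letters is a description and does not show a branch site.

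Branch reads did not follow peak reads over the 4 introns. There were 77.8 branch reads per 1000 peak reads in *lig4*, 11.5 in *eme1* and 1.66 in *ssb3*, against a median of 4.68 over 753 introns found in both tables (quartiles 1.14 and 18.7). The value of 200 for *srs2* rests on 1 branch read and 5 peak reads. The 3 other introns had nearly equal branch reads (28, 28 and 22), although their peak reads ran from 360 to 13262. The ratio leaves out introns with no branch read, and it falls by construction as peak reads rise at an equal number of branch reads.

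Circles with a skipped exon were compared last. The circle of *hus1* exon 3 had 107 reads (Poisson 95% interval 87.7 to 129), was 132 nt long and was listed in both runs. The circle of *lig4* exon 4 had 85 reads (67.9 to 105), was 205 nt long and was listed in the long run alone. The table gives 1 count per circle with the runs named, so the reads of *hus1* cannot be divided between the runs. The intervals overlap, and per nt of circle the counts were 0.811 for *hus1* and 0.415 for *lig4*, a ratio of 1.95. The count of *hus1* may cover both libraries and that of *lig4* the long run alone, so this ratio does not compare like counts.

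The exons themselves differ in size. Exon 3 of *hus1* is 13 nt long, the shortest of the 23 skipped exons, whose median is 65 nt. Of all 2790 annotated internal exons, 27 are 13 nt or shorter, which is 0.968%. The flanking introns of 65 nt and 54 nt make up nearly the whole circle. Exon 4 of *lig4* is 100 nt long, with flanking introns of 40 nt and 65 nt. None of these 4 flanking introns was listed as a circle of its own, and in 18 of the 23 events neither flanking intron was. Few introns this short were listed anywhere, with 0.493% of all annotated introns of 37 to 65 nt.

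Neither exon length is a multiple of 3, which was so for 17 of the 23 skipped exons. That count was not set beside all annotated internal exons, so nothing is read from it about skipped exons. In the reference sequence, leaving exon 3 out of the *hus1* coding sequence shifted the frame after 50 whole codons and gave a stop after 66, against 287 codons with the exon. Leaving exon 4 out of *lig4* shifted the frame after 102 whole codons and gave a stop after 128, against 913 with the exon. These codon counts were computed from the genome and no protein was measured.

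Among the 23 circles, *hus1* ranked 12 and *lig4* ranked 15 by reads, with a median of 107 reads over all events. The ranking mixes circles of both runs with circles of 1 run. The 9 events listed in both runs had a median of 309 reads, well above the 107 of *hus1*. The 9 events of the long run alone had a median of 89 reads, near the 85 of *lig4*. The events nearest *hus1* in circle length were exon 3 of *duf757*, also 132 nt, with 76 reads in both runs, and exon 3 of *ats1*, 139 nt, with 139 reads in the short run. The events nearest *lig4* were exon 2 of *trm402*, 207 nt, with 78 reads, and exon 2 of *lat1*, 208 nt, with 307 reads, both in the long run alone. Circles listed by the long run alone were all 188 nt or longer, while the others measured 121 to 184 nt, and *hus1* and *lig4* lie on either side of that gap.

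The genes have 17 internal exons in all, and 11 of them would give a circle within the listed range of 121 to 279 nt. Of those 11, the 2 described were listed, against 1.89% of the 1217 annotated internal exons with such a circle. The genes were picked with these events in view, so the share is no result. The 9 others include exon 2 of *lig4*, which at 11 nt is even shorter than exon 3 of *hus1* and would give a circle of 142 nt. They also include exons 5 and 9 of *lig4*, whose circles of 201 nt and 206 nt would be close to the listed one of 205 nt. Exon 2 of *eme1* (232 nt), exon 2 of *ssb3* (267 nt) and exon 2 of *hus1* (222 nt) were not listed either. The lowest count among the listed circles was 61 reads, so circles with fewer reads may have been left out. No source used here states a cutoff.

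**Figure D4:**
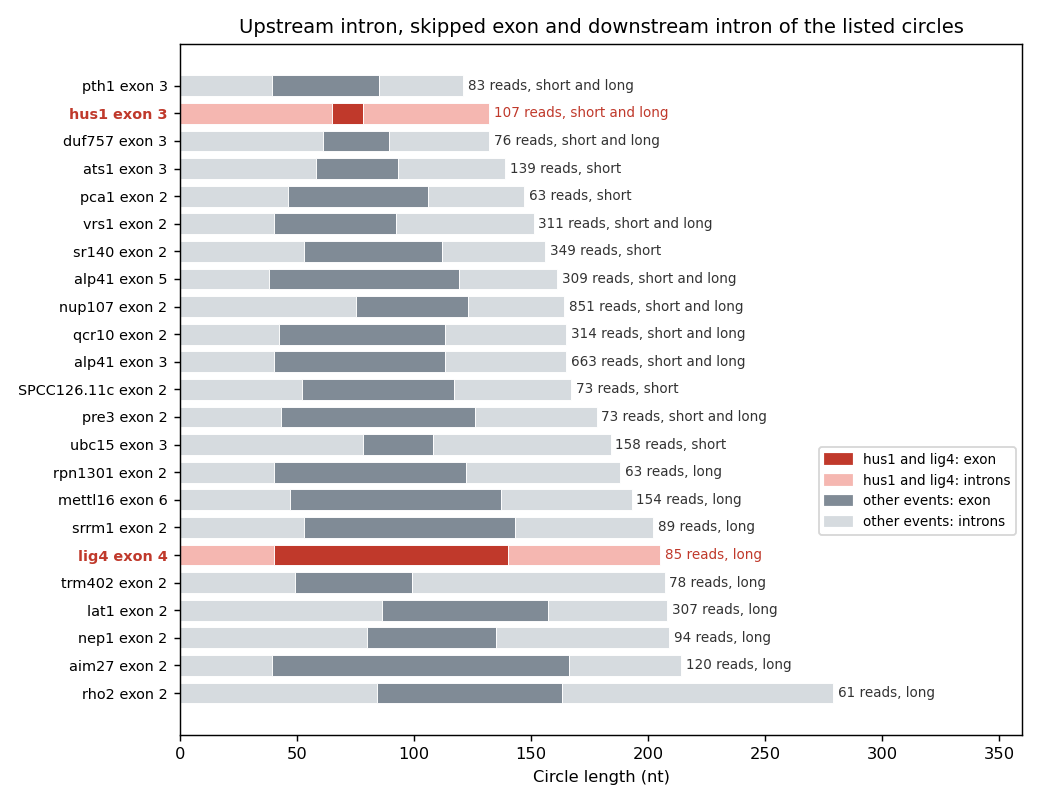
Length in nt of the 23 circles with a skipped exon, each bar made of the upstream intron, the exon (darker) and the downstream intron, with *hus1* and *lig4* in red and the circle reads and runs beside each bar. The *hus1* bar has the shortest exon, 13 nt in a circle of 132 nt, and the *lig4* bar has an exon of 100 nt in a circle of 205 nt.

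The 5 genes were then set beside further genes of DNA repair and the checkpoint, from a list of 106 genes of which 68 have introns. Of these 68 genes, 30 had a listed intron (44.1%), 26 of them outside the 5 genes, against 42.4% of all mRNA genes with an annotated intron. The 68 include the 5 genes, which were chosen from the tables and of which 4 had a listed intron. Nothing is therefore read from the share of 44.1%. Over introns of any length up to 2000 nt, 34 of the list's 185 were listed (18.4%), against 24.0% of all annotated introns, and under 80 nt the shares were 1.37% and 2.69%. The 34 listed introns of the list had a median of 398 peak reads, against 438 over all listed introns, and 16 of the 34 lay above that median. Of the list's introns of 80 to 200 nt, 28 of 33 were listed (84.8%, Wilson 95% interval 69.1 to 93.3), against 89.5% of all annotated introns of that length. Without the 5 genes, 30 of 163 introns of the list were listed (18.4%), with a median of 398 peak reads. The shares were then 0.787% under 80 nt and 83.3% (25 of 30, 66.4 to 92.7) at 80 to 200 nt. Among its 34 introns, *ssb3* ranked 2, *eme1* 9, *lig4* 19 and *srs2* last.

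Partners of Ssb3, Eme1, Lig4 and Hus1 are on the list. Intron 1 of *ssb2*, which encodes another subunit of replication protein A, had 11599 peak reads at 127 nt, beside 13262 for *ssb3*. Per nt, *ssb3* was 1.44 times as high as *ssb2*, the closest of the pairs. Intron 1 of *mus81*, the nuclease partner of Eme1, had 427 peak reads at 168 nt, and *eme1* was 11.4 times as high per nt. Intron 2 of *xlf1*, an end-joining factor that acts with Lig4, had 149 peak reads at 113 nt, and *lig4* was 3.14 times as high per nt. The partner introns in these pairs are the longer ones, so division by length enlarges each ratio. In peak reads the ratios were 1.14 for *ssb3*, 5.70 for *eme1* and 2.42 for *lig4*. Peak reads were among the values by which *ssb3*, *eme1* and *lig4* were chosen, so the ratios are descriptions only. Intron 1 of *rad1*, whose product forms the clamp with Hus1, had 107 peak reads at 126 nt, while *hus1* had no listed intron.

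Among the other genes, 2 listed introns of *mms2* had the most reads outside the 5 genes, with 18654 peak reads for intron 2 and 11676 for intron 3. Mms2 works with Ubc13 in the ubiquitin modification of the replication clamp, and *ubc13* intron 2 had 2023. The replication clamp gene *pcn1* had 739 in intron 1, and *rhp6*, a ubiquitin-conjugating enzyme gene, had 17 in intron 3. In recombination, *top3* (a topoisomerase) had 5940 in intron 2 and 1628 in intron 5, *rad57* (a recombination mediator) had 4200 in intron 1, and *nbs1* had 3957 in intron 3. The mediator gene *swi5* had 548 in intron 2, *smc6* had 169 in intron 1, *rti1* (a Rad52 homolog) had 11 in intron 1, and *nse2*, a SUMO ligase gene, had 115 in intron 2 and 6 in intron 1, the lowest outside the 5 genes.

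In excision and mismatch repair, *myh1*, an adenine DNA glycosylase gene, had 4519 peak reads in intron 1. The mismatch repair genes *msh6* and *pms1* had 848 in intron 1 and 36 in intron 2. Among checkpoint genes the highest was *brc1*, which encodes a BRCT-domain protein, with 1429 in intron 2, followed by the checkpoint kinase gene *cds1* with 370 in intron 1 and 98 in intron 7. The 14-3-3 genes *rad25* and *rad24* had 115 and 27 in their long first introns of 717 and 407 nt. The nuclease genes *swi10* (the ERCC1 homolog) and *rad2* (a flap endonuclease) had 163 in intron 1 and 9 in intron 2. By role, the listed introns above the median of the table were 1 of 6 in the checkpoint, 0 of 2 in end joining, 5 of 10 in recombination, 3 of 5 in excision and mismatch repair, 4 of 5 in post-replication repair, 2 of 2 in single-stranded DNA binding and 1 of 4 among nucleases. These counts include *ssb3*, *eme1*, *lig4* and *srs2*, which were chosen by values in these tables. The 1 nuclease intron above the median is that of *eme1*, and *ssb3* is 1 of the 2 in single-stranded DNA binding. Intron length was not held equal between roles. Differences between roles were not tested.

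**Figure D5:**
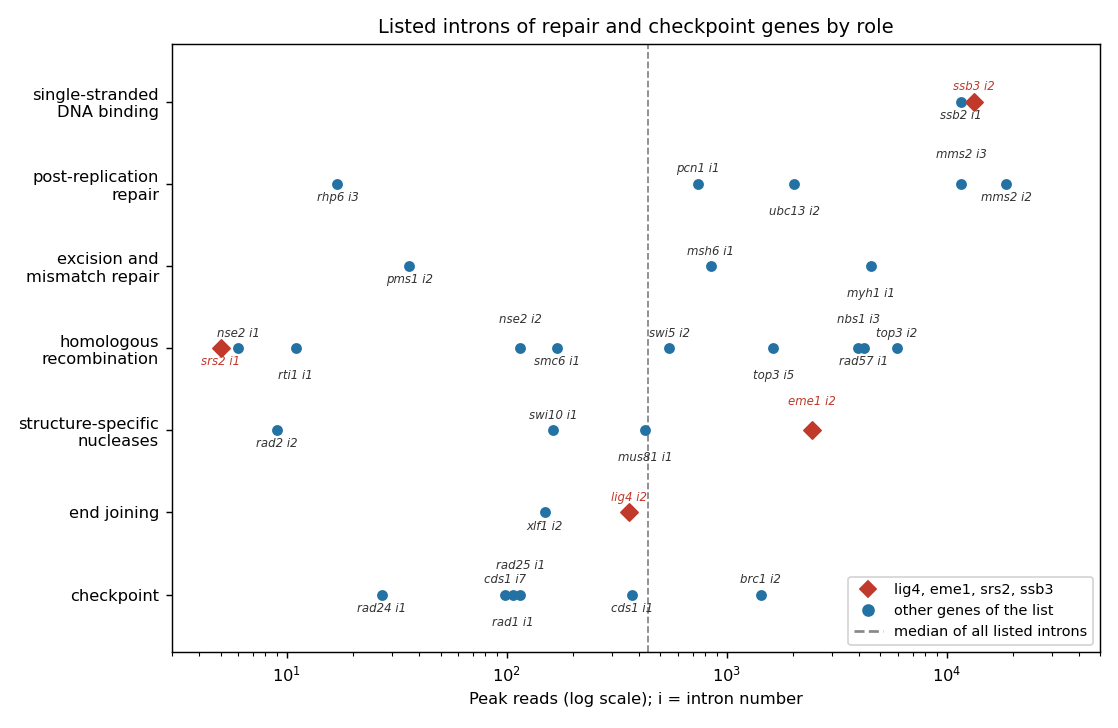
Peak reads (log scale) of 32 of the 34 listed introns of repair and checkpoint genes, 1 point per intron, in rows by role, with *lig4*, *eme1*, *srs2* and *ssb3* as red diamonds, other genes in blue and the median of all listed introns (438 reads) as a dashed line. Introns of *ssb3* and *ssb2* lie together at the high end, and *srs2* is the lowest point.

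Second branch positions were also listed in other repair genes. Of 18 introns of the list outside the 5 genes with branch reads, 5 had more than 1 position (27.8%), against 20.4% of all introns in the branch table. They were *ssb2* intron 1 with 20 of 22 reads at the leading of 3 positions, *mus81* intron 1 with 14 of 15, *pcn1* intron 1 with 13 of 15, *nse2* intron 2 with 6 of 8 and *top3* intron 5 with 55 of 56. Of the 5 such introns with at least 20 branch reads, 2 had more than 1 position, against 56.6% of all introns with as many. All 68 branch reads of *myh1* intron 1, all 25 of *mms2* intron 2 and all 21 of *cds1* intron 1 lay at a single position.

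The table of added introns held 6 introns at genes of the list and none at the 5 genes. The highest lay in the coding sequence of *rad8*, where the authors classed it as frameshifting, with 417 peak reads at 179 nt, above the median of 117 over the 222 added introns. The others had 150 reads antisense to *rad3*, 119 at *rdl1* as a change of the gene model, 88 in the 5′ untranslated region of *pso2*, 55 antisense to *rhp16* and 50 in the 3′ untranslated region of *exo1*. The lowest count in that table was 50, so introns of this kind with fewer reads may have been left out. No source used here states a cutoff.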

How the data were processed

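Circular RNA of *S. pombe* without dbr1 was sequenced in 2 libraries. The submitters' processing notes name Bowtie 0.12.3 and SAMtools, and neither they nor the file headers say what each did, how peaks were called or which build and annotation were used. The values deposited by the authors are whole read counts per peak or per circle, per the file headers, and a text field with branch sequences, distances and read counts. The counts are not normalized for intron length or for recovery from the gel, which was not measured here. Only the tables' names tie the peak and branch tables to the short run, and the skipped-exon table covers both runs.

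Of 1314 annotated lines, 22 repeats were dropped. Introns and exons were compared with the RefSeq annotation of ASM294v3, with positions read as 1-based. Counts carry exact Poisson and shares Wilson 95% intervals, computed in Python 3.11.15 with scipy 1.17.1, pandas 2.3.3 and numpy 2.4.6. These functions were tested on simulated data. No replicate exists, so no comparison was tested.

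The genes, the lists and the rule for named genes were chosen with earlier results of these data known. The rule took every line of the 5 genes, every listed gene of the repair list except 2 that are not reported here, and the nearest introns and circles in leading share and length. Symbols matched the RefSeq table for 116 of 116 names, giving 106 genes. Alternatives changed the length range, the read minimum, the division by length and the match of intron ends.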

Additional observations from a re-analysis of the deposited data

How the results depend on the processing

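Of 24 alternative values, 12 stayed the same and 12 moved. Shares counted as the same within the Wilson 95% interval of the value reported, and medians, counts and ranks within 1.5 times of it. Some values that stayed the same could not have moved. Taking the highest intron of each gene changed nothing, since each had 1 listed intron. A minimum of 2 reads removed no branch position of *eme1* or *ssb3*. The count of *srs2* is the lowest in the table, so it exceeded no intron of like length either. The share of listed introns that an intron exceeded was 47.2% for *lig4* and moved to 35.9% within 80 to 200 nt, 51.6% with reads divided by length, 43.5% with a minimum of 10 reads and 61.2% among introns within 10 nt of its length. For *eme1* it was 72.1% and moved to 65.2% within 80 to 200 nt, 77.9% per nt and 86.6% among introns of like length. For *ssb3* it was 91.7%, and 89.6% within 80 to 200 nt and 93.5% per nt. For *srs2* it was 0% and became 7.35% per nt. The median of the 4 introns was 2434 reads without *srs2*, which is under 80 nt, against 1397, and the median of the repair list was 398 over all its listed introns and 794 within 80 to 200 nt, where that of all listed introns was 883. The cause was not tested. No paired analysis was possible because each run has 1 library and no result comes from a test. Branch reads were few, with 1 in *srs2* and 22 to 28 in the other introns, and no intron under 5 reads is in the annotated table.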
